A study of Mus musculus with 24 samples.

Results

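The cathepsins and their companions in the lysosome were followed in bulk RNA sequencing of mouse kidney. The set held 35 genes of 35413 in the gene table, taken by symbol: 9 cysteine proteases, 3 aspartic and serine proteases, 8 glycosidases, 3 sulfatases, 6 genes of lipid and lipoprotein handling, 5 membrane proteins and 1 transcription factor. In the first experiment, ENPP1 fl/fl mice had been crossed with CAG-ERCre mice, which carry a tamoxifen-inducible Cre recombinase under a broadly active promoter. It held 6 Cre-positive mice labelled ENPP1 knockout and 6 Cre-negative mice labelled wild type, both on an adenine diet for 14 days, and 4 mice on chow of unstated genotype. In the second experiment all mice ate the adenine diet for 14 days, and 4 received a monoclonal antibody raised to human ENPP1 and 4 control IgG, each by intraperitoneal injection at 50 mg/kg. ENPP1 is an ectonucleotidase that cleaves extracellular ATP, and dietary adenine injures the tubules through crystals of its oxidised product. The sources used here do not give age, sex or strain, nor whether the Cre-negative mice also had tamoxifen or the antibody-treated mice human ENPP1. Cre was present in the labelled knockout group and absent from the wild type, so an effect of Cre cannot be told apart from one of the deletion.

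Lysosomes are acidic organelles in which hydrolases take apart proteins, glycans and lipids delivered by endocytosis and autophagy. Most soluble hydrolases are tagged with mannose 6-phosphate in the Golgi, LAMP proteins line the membrane, the vacuolar ATPase pumps in protons, and the transcription factor TFEB, with its relatives, binds the CACGTG-containing CLEAR element in the promoters of many lysosomal genes. In the kidney, proximal tubule cells carry a large load of lysosomes because they take up and degrade filtered protein, while cathepsins S, C and K are better known from macrophages, granule-bearing leukocytes and osteoclasts.

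The libraries held 21049722 to 28209908 assigned reads in the knockout experiment and 43880608 to 50557594 in the antibody experiment, and mitochondrial genes took 16.9% to 30.1% of them. Levels are counts-per-million (CPM) scaled by TMM, separately in each experiment, so levels are not compared between the experiments. A gene was called at an adjusted p under 0.05 by edgeR's quasi-likelihood test with Benjamini-Hochberg adjustment over all genes tested. Tests compared mice as far as the labels say, and otherwise measure the spread between these samples. Enpp1 served as the check of the labels. It measured 55.8, 55.4, 55.6 and 49.8 CPM on chow, 20.9 to 24.9 CPM (median 21.3) in wild type and 21.5 to 24.7 CPM (median 22.4) in the libraries labelled knockout. The last 2 groups overlapped, and their difference on the log2 scale was 0.05 ± 0.05 (SE; edgeR adjusted p = 0.466), a sign that turned with upper-quartile scaling. Reads are summed over all exons, so this total need not show the loss of single exons, and the group is called the labelled knockout below. In the antibody experiment Enpp1 measured 7.23 to 8.86 CPM with IgG and 9.52, 2.63, 3.26 and 17.4 CPM with the antibody.

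The promoters of the members are shown first because the CACGTG core of the CLEAR element was common in them. RefSeq windows (build GRCm38.p6, 250 bases before to 50 after the start of transcription) were found for 31 of 35 members, all but Ctsb, Ctsh, Asah1 and Npc1. CACGTG, which reads the same on both strands, stood in the window of 14 of the 31 (45.2%), against 8.09% of 27025 genes with a window. The 8-base TCACGTGA, which contains it, stood in 5 (16.1%), against 1.12% of genes, and the 10-base palindrome that adds G before and C after it stood among the 31 only in Cln3, against 0.37% of genes. The unrelated TATAAA, searched on both strands, stood in 3 members (9.68%) and in 15.7% of genes. It differs from CACGTG in its share of G and C, so it is no matched comparison. The CLEAR element is known from lysosomal promoters, so its share in a lysosomal list is no independent test. The 250 bases before the start, 5′ to 3′ on the gene's strand with CACGTG in capitals, are given for Lamp1 (chr8:13158911-13159160, plus strand) and Mcoln1 (chr8:3500269-3500518, plus strand), which hold several copies, and for Ctss (chr3:95526536-95526785, plus strand) and Lipa (chr19:34527475-34527724, minus strand), the members with the largest rise and the largest fall on adenine, which hold none.
Lamp1: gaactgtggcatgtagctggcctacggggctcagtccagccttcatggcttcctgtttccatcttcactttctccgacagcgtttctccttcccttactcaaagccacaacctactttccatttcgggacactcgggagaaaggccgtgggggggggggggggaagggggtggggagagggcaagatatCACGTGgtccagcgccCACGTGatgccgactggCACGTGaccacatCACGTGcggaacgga
Mcoln1: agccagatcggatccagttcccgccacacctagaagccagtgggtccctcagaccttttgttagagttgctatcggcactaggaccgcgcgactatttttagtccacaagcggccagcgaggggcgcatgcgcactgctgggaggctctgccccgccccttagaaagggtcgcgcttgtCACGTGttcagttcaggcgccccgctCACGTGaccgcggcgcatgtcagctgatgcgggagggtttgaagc
Ctss: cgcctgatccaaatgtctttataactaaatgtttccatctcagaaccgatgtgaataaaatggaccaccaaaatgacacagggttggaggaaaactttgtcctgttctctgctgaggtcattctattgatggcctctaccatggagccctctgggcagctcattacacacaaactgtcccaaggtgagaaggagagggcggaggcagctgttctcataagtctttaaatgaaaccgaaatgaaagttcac
Lipa: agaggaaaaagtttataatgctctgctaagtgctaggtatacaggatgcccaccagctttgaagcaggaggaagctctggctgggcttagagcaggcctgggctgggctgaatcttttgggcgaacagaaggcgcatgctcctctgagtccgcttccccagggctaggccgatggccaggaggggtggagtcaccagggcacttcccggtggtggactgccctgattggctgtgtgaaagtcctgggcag

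Lamp1 carried 4 copies of CACGTG, whose first bases lay 61, 45, 28 and 15 bases before the start. Shorter stretches around the motif show how its flanks varied between members that are described below: Cln3 (chr7:126583340-126583369, minus strand, 121 bases before the start), Ctsd (chr7:142387908-142387937, minus strand, 98 bases), Ctsa (chr2:164833749-164833778, plus strand, 12 bases), Glb1 (chr9:114401018-114401047, plus strand, 48 bases), Naglu (chr11:101070009-101070038, plus strand, 73 bases) and Arsa (chr15:89477423-89477452, minus strand, 16 bases).
Cln3: cacgggtactgtCACGTGacccccaacctg
Ctsd: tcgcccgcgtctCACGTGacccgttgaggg
Ctsa: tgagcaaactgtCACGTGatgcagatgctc
Glb1: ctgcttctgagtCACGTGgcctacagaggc
Naglu: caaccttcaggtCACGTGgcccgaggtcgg
Arsa: tcaactcagtgtCACGTGttgtctgctcct

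Of the 10 bases of the longer palindrome, 10 matched in Cln3, 9 in Ctsd, Ctsa, Glb1 and Naglu, and 8 in Arsa. A match of letters is a description of these windows, and binding was not measured.

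Compared per length, as TPM (reads divided by transcript length and scaled to a fixed total) within a group, the members spanned a wide range. In the chow kidneys the median TPM was 326 for Lamp1, 299 for Psap, 241 for Ctsl, 240 for Lgmn, 227 for Ctsd, 183 for Lamp2 and 125 for Ctsb. These encode a membrane glycoprotein, the precursor of the saposins, 4 proteases and a second membrane glycoprotein. The lowest above 0 were Arsa at 3.84 TPM, Ctsk at 3.48 TPM and Sgsh, the heparan N-sulfatase, at 1.86 TPM, and Ctss, at 11.4 TPM, ranked 26 of 35. Gla, which encodes alpha-galactosidase A, was listed at 0 in 18 of 24 libraries and held 85.5 reads over all of them. It did not pass the filter on low counts in the knockout experiment, so 34 members were tested there and 35 in the antibody experiment.

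In wild type on adenine, TMM-scaled levels of most lysosomal hydrolases were lower than on chow, and those of the leukocyte cathepsins were higher. Of 34 members tested in wild-type adenine against chow, 25 fell, 7 rose and 2 (Ctsk and Tfeb) were not called, where 40.9% of all 16959 genes fell and 44% rose. The median change of the members was −0.59 on the log2 scale, against 0.07 over all genes tested. The 25 that fell were Lipa, Ctsh, Glb1, Arsb, Lamp1, Ctsz, Psap, Lamp2, Ctsf, Neu1, Scarb2, Npc2, Ppt1, Lgmn, Ctsa, Ctsb, Tpp1, Hexa, Naglu, Man2b1, Sgsh, Gaa, Ctsd, Ctsl and Asah1. The 7 that rose were Ctss, Ctsc, Cln3, Mcoln1, Arsa, Gusb and Npc1. Ctsk, at 0.15 (edgeR adjusted p = 0.284), was called higher with upper-quartile scaling (0.38, adjusted p = 0.0149). Protein-coding transcripts alone called it higher too (0.30, edgeR adjusted p = 0.0426).

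These directions are relative to TMM scaling, and the scale matters for this comparison. Upper-quartile scaling moved the median of all genes by 0.23 and gave 19 members lower and 9 higher. In CPM without TMM the median over all genes was 0.72 and that of the members 0.06, and in deposited TPM 1.00 and 0.43. Set against the median of all genes, the members' median was −0.66, −0.66 and −0.57 on the TMM, unscaled and TPM scales. With TPM, 27 of 34 members lay below the median of all genes, with TMM-scaled CPM 25, and without TMM 26. A fall here is thus a fall relative to most other transcripts in the same kidneys.

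The membrane glycoprotein gene Lamp1 measured 1076, 1096, 838 and 992 CPM on chow and 215 to 305 CPM (median 265) in wild type on adenine. The groups lay far apart, with a log2 change of −1.92 ± 0.10 (SE; edgeR adjusted p = 2.08e-12), a 3.79-fold lower level. Lipa encodes the acid lipase that frees cholesterol and fatty acids from endocytosed lipoproteins. It measured 207, 212, 189 and 208 CPM on chow and 44.6 to 52.9 CPM (median 49.3) on adenine. Its log2 change of −2.06 ± 0.12 (edgeR adjusted p = 4.88e-12) was the largest fall of a member.

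Ctsh, an aminopeptidase of the cysteine cathepsin family, measured 201, 194, 144 and 183 CPM on chow and 40.6 to 50.6 CPM (median 46.5) on adenine. Its log2 change was −1.96 ± 0.08 (edgeR adjusted p = 8.84e-14). Glb1, the beta-galactosidase that acts on gangliosides and keratan sulfate, measured 129, 119, 100.1 and 110 CPM on chow and 26.9 to 32.2 CPM (median 29.9) on adenine, a change of −1.94 ± 0.07. Arsb, the sulfatase that works on dermatan and chondroitin sulfate, measured 56.3, 57.6, 49.2 and 56.7 CPM on chow and 12.3 to 15.96 CPM (median 14.6) on adenine, a change of −1.93 ± 0.15. In all 3 genes each chow library was above each adenine library.

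Ctss, the protease that trims the invariant chain of MHC class II in antigen-presenting cells, moved the other way. It measured 21.97, 19.9, 17.7 and 21.7 CPM on chow and 84.1 to 129 CPM (median 101) on adenine. The 5.08-fold rise corresponded to a log2 change of 2.34 ± 0.11 (edgeR adjusted p = 4.96e-13). Ctsc, which activates the serine proteases of leukocyte granules, measured 28.1, 24.9, 19.3 and 25.1 CPM on chow and 46.0 to 69.0 CPM (median 56.5) on adenine. Its log2 change was 1.26 ± 0.11 (edgeR adjusted p = 1.88e-09).

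Both leukocyte cathepsins were higher in every adenine library than in any chow library. Cln3, a lysosomal membrane protein mutated in a juvenile form of neuronal ceroid lipofuscinosis, measured 26.8, 23.6, 26.9 and 25.7 CPM on chow and 38.3 to 40.0 CPM (median 39.4) on adenine, a log2 change of 0.61 ± 0.05. Mcoln1, the calcium-releasing channel TRPML1, measured 59.0, 52.1, 54.6 and 57.8 CPM on chow and 78.4 to 93.6 CPM (median 81.5) on adenine, a change of 0.57 ± 0.06. Its direction turned to −0.60 ± 0.07 (edgeR adjusted p = 7.42e-07) when only protein-coding transcripts were summed, as described further below, and with a transcript-length offset it was 0.05 and not called.

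Ctsd, the main aspartic protease of lysosomes, measured 700.5, 645, 536 and 641 CPM on chow and 393 to 584 CPM (median 552) on adenine. These groups overlapped, and the log2 change of −0.25 ± 0.10 (edgeR adjusted p = 0.0257) was no longer called without chow replicate 1 (adjusted p = 0.136), 2 (adjusted p = 0.0754) or 4 (adjusted p = 0.0727). Tfeb, the transcription factor, measured 33.2, 31.9, 29.4 and 32.0 CPM on chow and 30.8 to 36.4 CPM (median 32.4) on adenine. It was not called, with a log2 difference of 0.07 (95% interval −0.06 to 0.20; edgeR adjusted p = 0.296), though upper-quartile scaling (0.30), a transcript-length offset (0.21) and protein-coding transcripts alone (0.14) each called it higher.

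**Figure D1:**
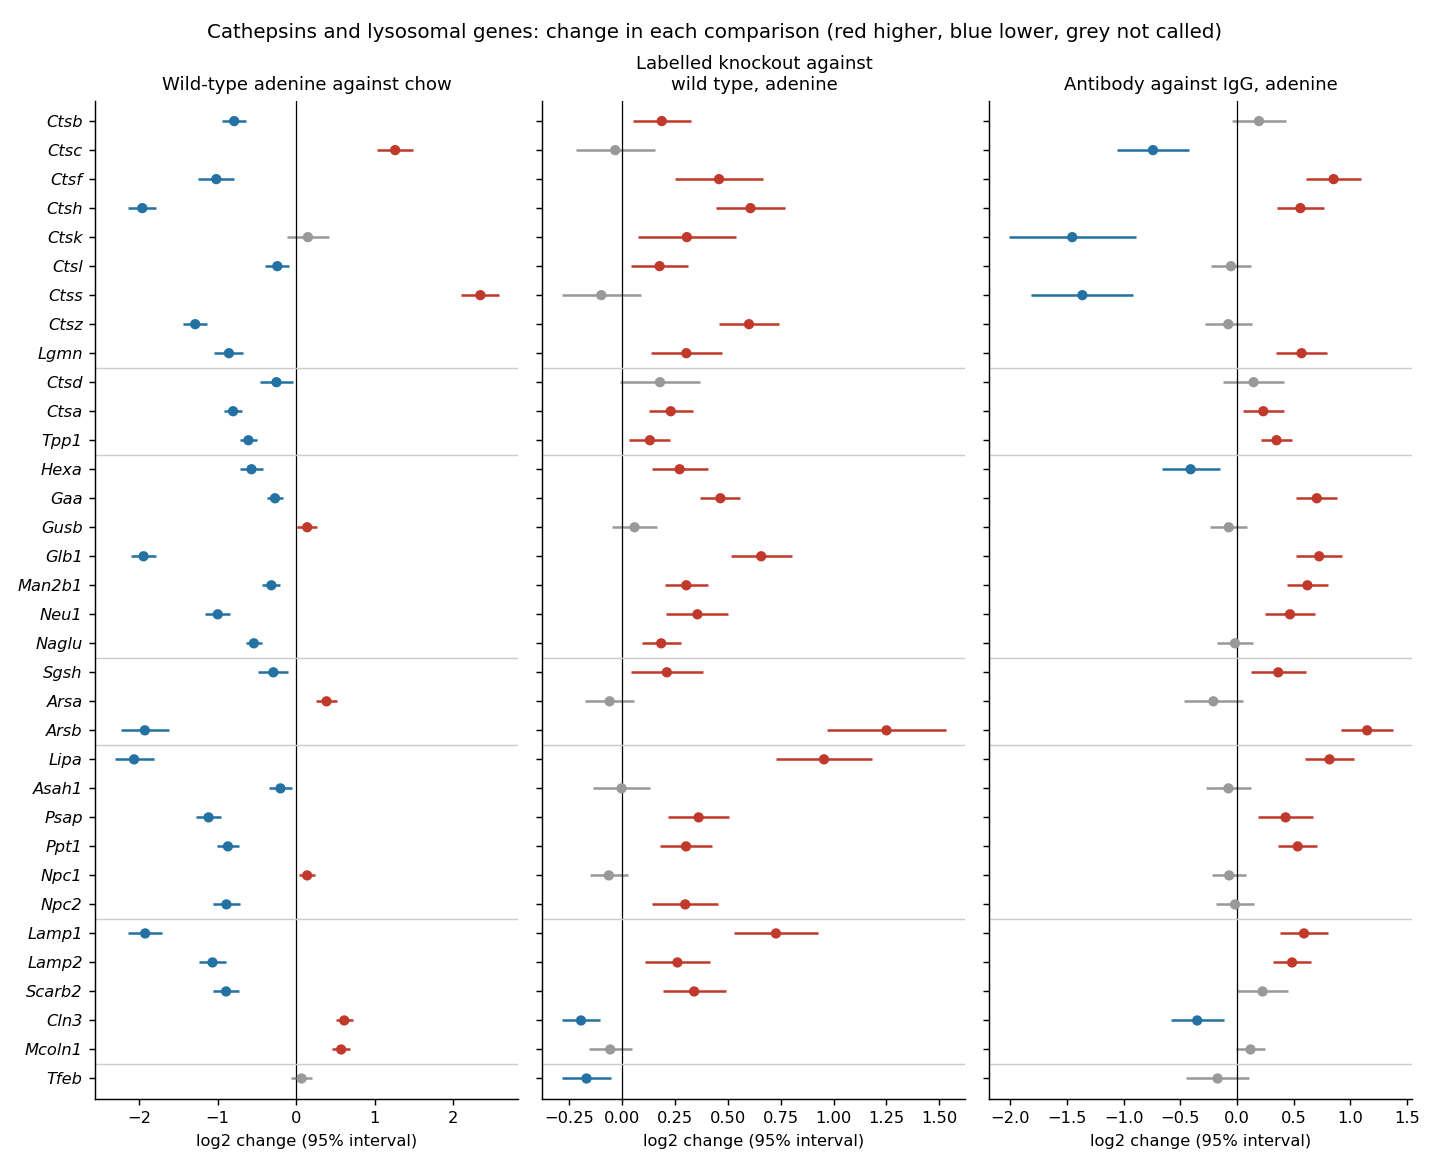
Log2 change with its 95% interval (horizontal axis, different range in each panel) for the 34 members tested in all 3 comparisons, ordered by role with grey lines between roles. In wild-type adenine against chow 25 members lie to the left and are called, and in the labelled knockout against wild type 24 lie to the right and are called.

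By role, 6 of 9 cysteine proteases fell and 2 rose, with Ctsz at −1.28, Ctsf at −1.02, Lgmn at −0.86, Ctsb at −0.79 and Ctsl at −0.24 on the log2 scale. All 3 aspartic and serine proteases fell: Ctsa, which also stabilises Glb1 and Neu1 in a complex, changed by −0.80 and Tpp1, a tripeptidyl peptidase, by −0.61. Among 7 glycosidases tested 6 fell and 1 rose, from Glb1 to Gusb at 0.14. Neu1, the lysosomal sialidase, changed by −0.997, Hexa, a subunit of beta-hexosaminidase, by −0.57, Naglu, which acts on heparan sulfate, by −0.54, Man2b1, a mannosidase, by −0.32 and Gaa, which degrades glycogen, by −0.27. Of 3 sulfatases Arsb and Sgsh (−0.29) fell and Arsa, which acts on sulfatide, rose by 0.39.

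Of the 6 genes of lipid handling 5 fell, with Psap at −1.11, Npc2 at −0.89, Ppt1 at −0.87 and Asah1, the acid ceramidase, at −0.20. Npc1, the partner of Npc2 in cholesterol export, rose by 0.14, a sign that turned with a transcript-length offset. The smallest changes lost their calls under several settings. Gusb did so without wild-type replicate 1 (edgeR adjusted p = 0.0699) or chow replicate 3 (0.0649), and also with RLE (0.0554), no filter on low counts (0.055), DESeq2 (0.092) and protein-coding transcripts alone (0.21). Asah1 did so without wild-type replicate 4 (0.0679) or chow replicate 1 (edgeR adjusted p = 0.115) or 2 (0.0607). Upper-quartile scaling ended the calls of Ctsl, Ctsd, Gaa, Man2b1, Sgsh and Asah1. Protein-coding transcripts alone ended those of Ctsl (edgeR adjusted p = 0.206), Ctsd (0.337), Asah1 (0.352) and Sgsh (0.0636). With a transcript-length offset Gaa was not called (−0.05, edgeR adjusted p = 0.493). Among the membrane proteins Lamp2 changed by −1.06 and Scarb2, the receptor that carries glucocerebrosidase to the lysosome, by −0.89, while Cln3 and Mcoln1 rose. Chow and wild-type adenine libraries did not overlap for 21 members that fell and 6 that rose, where 37.4% and 37.8% of all genes did not overlap in these directions.

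The other lysosomal lists were counted in the same way, and their differences from the members were not tested. Of 28 other hydrolases 20 fell and 6 rose, led downward by Gm2a (−2.45 ± 0.09), the activator of ganglioside breakdown, and Smpd1 (−2.24 ± 0.08), acid sphingomyelinase, and upward by Acp2 (3.06 ± 0.71) and Hyal1 (1.49 ± 0.07). Of 23 vacuolar ATPase subunits 20 fell and 3 rose. Atp6v1e1 changed by −1.89 ± 0.08 and Atp6v1g3 by −1.67 ± 0.07, while Tcirg1, the a3 subunit known from osteoclasts and immune cells, rose by 1.93 ± 0.09 and Atp6v0a1 by 1.38 ± 0.09. Of 12 genes of mannose 6-phosphate tagging and sorting 9 fell and 3 rose, with the retromer subunits Vps26a at −1.35 ± 0.07 and Vps35 at −1.29 ± 0.07, and Gga3 at 1.12 ± 0.06 and Gnptab at 0.62 ± 0.05.

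Of 16 genes of the TFE family and of nutrient sensing on the lysosome 12 fell and 2 rose. The Ragulator subunits Lamtor5 (−1.99 ± 0.06) and Lamtor1 (−1.93 ± 0.08) fell, and Tfe3, a relative of Tfeb, rose by 0.72 ± 0.05 and Flcn by 0.42 ± 0.05. Among 18 other membrane proteins tested 10 fell, led by Laptm4b (−2.78 ± 0.08) and Tmem192 (−2.01 ± 0.10), and 8 rose, led by Gpnmb (5.28 ± 0.65) and Cd68 (2.13 ± 0.11), which are macrophage-associated. Over all genes tested 40.9% fell and 44% rose. Of the cystatins, the inhibitors of cysteine cathepsins, 3 were tested: Cst3 fell by 1.54 ± 0.07, Cstb rose by 0.37 ± 0.10 and the third was not called.

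Markers of kidney cell types moved with the members. All 12 proximal tubule markers fell, and their summed level was 29014 to 31647 CPM on chow and 2500 to 4684 CPM in wild type on adenine. Of 12 macrophage markers 11 rose, from a sum of 180 to 196 CPM to a sum of 320 to 443 CPM, and 6 of 6 tested neutrophil markers rose, from 8.57 to 13.2 CPM to 45.4 to 66.9 CPM. Of 8 fibroblast markers 3 rose and 4 fell. Of 6 osteoclast markers 5 rose and 1 fell, while their sum was 76.1 to 83.8 CPM on chow and 30.9 to 38.1 CPM on adenine. In bulk tissue, fewer cells of a type and less RNA per cell cannot be told apart, and the part of these shifts in the members' changes was not tested. No marker list had a gene at 0 in all libraries.

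In the labelled knockout most members, led by Arsb and Lipa, were higher than in wild type on the same diet. Of 34 members tested 24 rose, 2 (Cln3 and Tfeb) fell and 8 were not called, where 25.1% of all genes rose and 21.3% fell. The median change was 0.27 on the log2 scale, against −0.02 over all genes, and 0.29, 0.28 and 0.27 above the median of all genes in TMM-scaled CPM, unscaled CPM and TPM. The 24 were Arsb, Lipa, Lamp1, Glb1, Ctsh, Ctsz, Gaa, Ctsf, Psap, Neu1, Scarb2, Ctsk, Lgmn, Man2b1, Ppt1, Npc2, Hexa, Lamp2, Ctsa, Sgsh, Ctsb, Naglu, Ctsl and Tpp1. Not called were Ctss, Ctsc, Ctsd, Gusb, Arsa, Asah1, Npc1 and Mcoln1. Protein-coding transcripts alone called Mcoln1 (0.24, edgeR adjusted p = 0.00698) and Asah1 (0.27, adjusted p = 0.0383) higher. Upper-quartile scaling called Mcoln1 lower (−0.12, edgeR adjusted p = 0.0446). The comparison shares its wild-type libraries with that against chow, so the values below are set beside it without a test of their relation.

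Arsb measured 22.8 to 50.6 CPM (median 33.6) in the labelled knockout, above the highest of the wild-type libraries at 15.96 CPM. Its log2 change of 1.25 ± 0.13 (edgeR adjusted p = 8.34e-07), or 2.38-fold, was the largest of the members. Lipa measured 66.8 to 130 CPM (median 92.2) in the labelled knockout against a wild-type maximum of 52.9 CPM, a change of 0.95 ± 0.11 (edgeR adjusted p = 1.45e-06). Every Lipa value lay below the chow libraries, as did all Arsb values but that of replicate 2, and replicate 2 held the highest and replicate 5 the lowest labelled knockout value of each.

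Lamp1 measured 371 to 529 CPM (median 427), above every wild-type library, with a log2 change of 0.73 ± 0.09 (edgeR adjusted p = 6.3e-06). Glb1 measured 41.6 to 54.7 CPM (median 46.6), again apart from wild type, with a change of 0.66 ± 0.07 (edgeR adjusted p = 6.18e-07). Ctsh followed at 0.61 ± 0.08 and Ctsz, a carboxypeptidase, at 0.60 ± 0.07. In these 4 genes the labelled knockout and wild-type libraries did not overlap. Over all members this held for 11 that rose and 1 that fell, where 14.5% and 10.2% of all genes did not overlap in these directions.

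The 2 members that fell did so by little. Cln3 measured 32.0 to 37.2 CPM (median 34.3) against 38.3 to 40.0 CPM in wild type, a log2 change of −0.19 ± 0.04 (edgeR adjusted p = 0.00143) without overlap, which with protein-coding transcripts alone was −0.09 and not called. Tfeb measured 27.1 to 32.1 CPM (median 29.6), overlapping wild type, with a change of −0.17 ± 0.05 (edgeR adjusted p = 0.017) that lost its call without wild-type replicate 4 (adjusted p = 0.0504), leaving 1 member lower. Ctsd measured 556 to 689 CPM (median 584), with a log2 difference of 0.18 (95% interval −0.01 to 0.37; edgeR adjusted p = 0.109).

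The leukocyte cathepsins did not separate the 2 groups. Ctss measured 86.3 to 112 CPM (median 96.0) in the labelled knockout, inside the wild-type range of 84.1 to 129 CPM, with a log2 difference of −0.10 (95% interval −0.29 to 0.09; edgeR adjusted p = 0.389). Ctsc measured 53.2 to 61.5 CPM (median 57.1), also within the wild-type range, with a difference of −0.03 (95% interval −0.22 to 0.15; edgeR adjusted p = 0.795), whose sign turned when wild-type replicate 1 or 4 was left out. Macrophage markers, of which 1 rose and 1 fell among 12, had a summed level of 350 to 397 CPM in the labelled knockout, beside 320 to 443 CPM in wild type. Of 8 fibroblast markers 4 rose and 0 fell, of 6 neutrophil markers 1 fell, and of 6 osteoclast markers 1 rose and 1 fell. Proximal tubule markers rose in 11 of 12, to a sum of 6660 to 11849 CPM, which remained below the chow range. The part of the tubule markers in the members' rise was not tested.

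**Figure D2:**
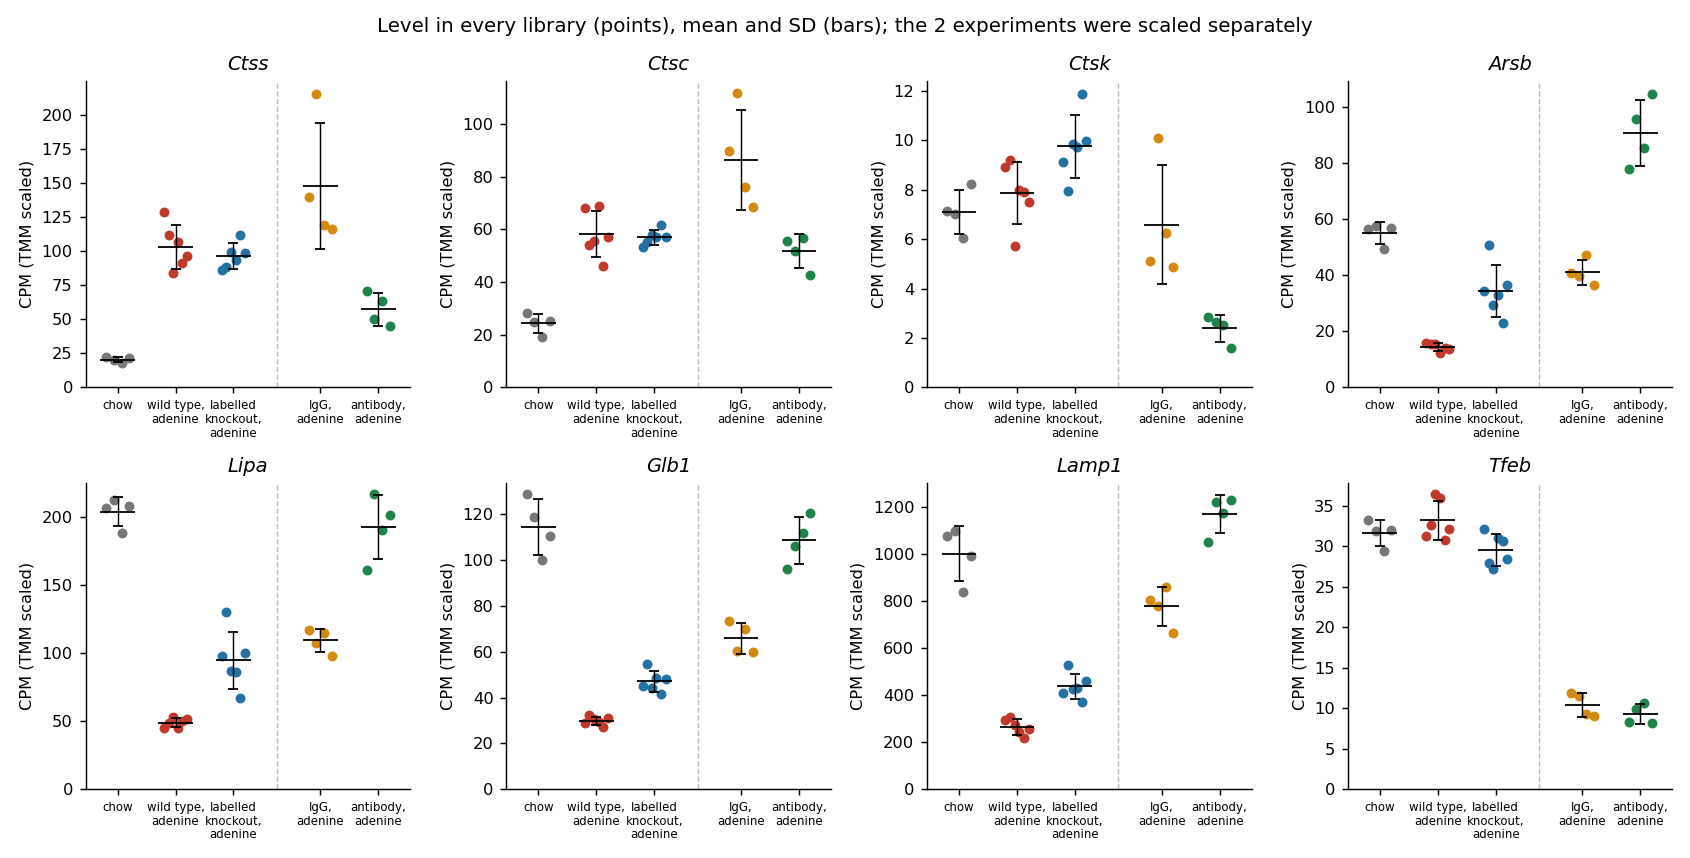
CPM (vertical axis from 0, scaled by TMM within each experiment) of 8 members in every library, with the mean and SD of each group; the dashed line separates the experiments. Arsb, Lipa, Glb1 and Lamp1 are lower in wild type on adenine than on chow and higher in the labelled knockout than in wild type. They are also higher with the antibody than with IgG. Ctss and Ctsc are higher in both adenine groups of the knockout experiment than on chow, and lower with the antibody than with IgG.

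By role, 7 of 9 cysteine proteases rose, 2 of 3 aspartic and serine proteases, 6 of 7 glycosidases, 2 of 3 sulfatases, 4 of 6 genes of lipid handling and 3 of 5 membrane proteins. Gaa, with 64.5 to 75.4 CPM in the labelled knockout and 48.9 to 52.9 CPM in wild type, rose by 0.46 ± 0.05 and was above its chow range of 57.5 to 65.4 CPM in most libraries. Smaller rises near the threshold, in Ctsk, Ctsl, Ctsb, Tpp1 and Sgsh, each lost the call when 1 of several libraries was left out and with upper-quartile scaling. Protein-coding transcripts alone ended the calls of Ctsk (edgeR adjusted p = 0.0782), Ctsl (0.101), Ctsb (0.0866) and Sgsh (0.947). Leaving out 1 library at a time kept 21 to 24 members higher. Beyond the members, 16 of 23 vacuolar ATPase subunits rose and Tcirg1 alone fell (−0.17 ± 0.07); Atp6v1e1 rose by 0.60 ± 0.07 and Atp6v1c2 by 0.55 ± 0.07. Of 28 other hydrolases 15 rose, led by Fuca1 (0.84 ± 0.07) and Gm2a (0.84 ± 0.08), and 4 fell, led by Hyal1 (−0.59 ± 0.06) and Idua (−0.34 ± 0.05).

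Of 12 sorting genes 5 rose and 0 fell, with Vps35 at 0.40 ± 0.06 and Gnptg at 0.28 ± 0.07. Of 16 genes of the TFE family and nutrient sensing 7 rose, led by Lamtor1 (0.67 ± 0.07) and Lamtor2 (0.49 ± 0.06), and 2 fell, Tfec (−0.35 ± 0.08) and Tfe3 (−0.14 ± 0.04). Among 18 other membrane proteins 5 rose, with Tmem192 at 0.82 ± 0.10 and Laptm4b at 0.72 ± 0.08, and 4 fell, with Cd68 at −0.40 ± 0.08 and Slc38a9 at −0.31 ± 0.05. These counts lay near the shares of all genes tested, of which 25.1% rose and 21.3% fell. Cst3, which encodes cystatin C, rose by 0.45 ± 0.07.

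Against chow, the labelled knockout on adenine had 20 members lower, 8 higher and 6 not called, where 39.9% of genes were lower and 40.2% higher. The median of the members was −0.41 on the log2 scale. Ctss (2.25 ± 0.11) and Ctsc (1.23 ± 0.11) again stood highest, and Ctsh (−1.35 ± 0.08), Glb1 (−1.28 ± 0.07), Lamp1 (−1.19 ± 0.10) and Lipa (−1.11 ± 0.12) lowest. For 18 lower members and 5 higher ones the libraries did not overlap, beside 36% and 33.7% of all genes. As in the wild type, the members' median lay above 0 without TMM (0.15) and in TPM (0.51), and below the median of all genes on each of the 3 scales.

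With the antibody, 16 members, among them Arsb, Ctsf and Lipa, were higher than with IgG, and Ctsk, Ctss and Ctsc, the cathepsins of osteoclasts and leukocytes, were lower. Of 35 members 16 rose, 5 fell and 14 were not called, where 27.2% of 16404 genes rose and 28% fell. The median change was 0.19 on the log2 scale against −0.04 over all genes. Without TMM the members' median was −0.04, with 15 of 35 above 0, and in TPM 0.02, while set against the median of all genes it was 0.23, 0.24 and 0.28 on the TMM, unscaled and TPM scales. Upper-quartile scaling moved the median of all genes by −0.16 and gave 14 members higher and 11 lower. The 16 were Arsb, Ctsf, Lipa, Glb1, Gaa, Man2b1, Lamp1, Lgmn, Ctsh, Ppt1, Lamp2, Neu1, Psap, Sgsh, Tpp1 and Ctsa, and the 5 were Ctsk, Ctss, Ctsc, Hexa and Cln3.

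Arsb measured 41.0, 39.6, 47.1 and 36.4 CPM with IgG and 77.7, 95.6, 85.4 and 104.7 CPM with the antibody. The groups were well apart, with a log2 change of 1.15 ± 0.10 (edgeR adjusted p = 4.36e-05). Ctsf, a cysteine protease, measured 12.97, 11.5, 12.4 and 10.5 CPM with IgG and 17.1, 24.2, 21.2 and 23.0 CPM with the antibody, a change of 0.85 ± 0.11. Lipa measured 117, 108, 115 and 98.0 CPM with IgG and 161, 217, 190.3 and 202 CPM with the antibody, a change of 0.82 ± 0.10. In all 3 genes antibody replicate 1 held the lowest antibody value and IgG replicate 4 the lowest IgG value.

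Ctsk, the collagen-cleaving cathepsin of osteoclasts, measured 5.12, 10.1, 6.23 and 4.87 CPM with IgG and 2.84, 2.64, 2.51 and 1.60 CPM with the antibody. Its log2 change of −1.45 ± 0.25 (edgeR adjusted p = 0.000786) was the largest fall of a called member. Ctss measured 139.9, 215, 119 and 116 CPM with IgG and 70.9, 50.2, 63.3 and 44.8 CPM with the antibody, a change of −1.36 ± 0.20 (edgeR adjusted p = 0.000323). IgG replicate 2 was highest in both genes, and the groups did not overlap in either.

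Ctsc measured 89.8, 112, 76.1 and 68.4 CPM with IgG and 55.8, 51.9, 56.8 and 42.6 CPM with the antibody, a log2 change of −0.74 ± 0.15 (edgeR adjusted p = 0.00151). Hexa changed by −0.41 ± 0.12 and Cln3 by −0.35 ± 0.11, the latter no longer called without IgG replicate 2 (−0.25; edgeR adjusted p = 0.0662) or with protein-coding transcripts alone (−0.22). Lamp1 measured 806, 781, 858 and 662 CPM with IgG and 1052, 1223, 1174 and 1228 CPM with the antibody, a change of 0.59 ± 0.10. Ctsd measured 697, 515, 632 and 508 CPM with IgG and 616, 684, 738 and 564 CPM with the antibody, which overlapped, with a difference of 0.15 (95% interval −0.13 to 0.42; edgeR adjusted p = 0.334) whose sign turned with upper-quartile scaling. Tfeb measured 11.9, 11.6, 9.27 and 9.04 CPM with IgG and 8.31, 9.88, 10.7 and 8.19 CPM with the antibody, with a difference of −0.17 (95% interval −0.45 to 0.11; edgeR adjusted p = 0.272).

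Among the other called members, Glb1 rose by 0.72 on the log2 scale, Gaa by 0.70, Man2b1 by 0.62, Lgmn by 0.57, Ctsh by 0.56, Ppt1 by 0.53, Lamp2 by 0.49, Neu1 by 0.47 and Psap by 0.43. Sgsh (0.36), Tpp1 (0.35) and Ctsa (0.23) rose least, and of the 16 only Ctsa overlapped between the groups. Ctsa lost its call without any 1 of antibody replicates 2, 3 and 4 or IgG replicates 2, 3 and 4 (edgeR adjusted p from 0.0502 to 0.0806), and Sgsh without antibody replicate 2 (adjusted p = 0.0532). Upper-quartile scaling ended the calls of Ctsa (0.08, edgeR adjusted p = 0.421) and Sgsh (0.21, adjusted p = 0.121). Protein-coding transcripts alone ended that of Ctsa too (0.16, edgeR adjusted p = 0.124). Libraries of the groups did not overlap for 15 members that rose and 5 that fell, where 25.4% and 25.1% of all genes did not overlap in these directions. By role, 3 of 9 cysteine proteases rose and 3 fell, 4 of 8 glycosidases rose and 1 fell, and 2 of 3 sulfatases, 3 of 6 genes of lipid handling and 2 of 5 membrane proteins rose. Not called were Ctsb, Ctsl, Ctsz, Ctsd, Gla, Gusb, Naglu, Arsa, Asah1, Npc1, Npc2, Scarb2, Mcoln1 and Tfeb. Upper-quartile scaling called Tfeb lower (−0.33, edgeR adjusted p = 0.0449). Protein-coding transcripts alone called Mcoln1 (0.43, edgeR adjusted p = 0.00143) and Npc2 (0.26, adjusted p = 0.0372) higher, and also Gusb and Npc1, as given further below.

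The cell type markers moved strongly in this experiment. All 12 proximal tubule markers rose, from a sum of 4897 to 9056 CPM with IgG to 17321 to 26086 CPM with the antibody. Of 12 macrophage markers 11 fell, from 272 to 530 CPM to 131 to 195 CPM. Of 5 neutrophil markers tested 4 fell, with a sum of 16.2 to 24.5 CPM with IgG and 8.89 to 11.9 CPM with the antibody. All 8 fibroblast markers fell, from 370 to 683 CPM to 142 to 222 CPM. Of 6 osteoclast markers 3 fell and 1 rose, while their sum was 39.9 to 50.1 CPM with IgG and 45.8 to 49.7 CPM with the antibody. The part of all these markers in the fall of Ctsk, Ctss and Ctsc and in the rise of the hydrolases was not tested.

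Of the wider lysosome, 15 of 23 vacuolar ATPase subunits rose, with Atp6v0a4, an intercalated cell isoform, at 1.58 ± 0.12 and Atp6v1a at 0.99 ± 0.10, and Tcirg1 fell by 1.24 ± 0.12. Of 28 other hydrolases 18 rose, led by Fuca1 (0.83 ± 0.13) and Gm2a (0.77 ± 0.11), and 5 fell, led by Ctse (−0.73 ± 0.27) and Hyal1 (−0.68 ± 0.11). Of 12 sorting genes 8 rose and 0 fell, with Vps35 at 0.89 ± 0.09 and Igf2r, the large mannose 6-phosphate receptor, at 0.70 ± 0.06. Of 16 genes of the TFE family and nutrient sensing 9 rose, with Mtor at 1.03 ± 0.12 and Fnip2 at 0.55 ± 0.07, and Tfe3 fell by 0.27 ± 0.09. Among 18 other membrane proteins 7 rose, with Tmem106b at 0.92 ± 0.08 and Laptm4b at 0.66 ± 0.12, and 5 fell, with Gpnmb at −1.93 ± 0.47 and Laptm5 at −1.22 ± 0.19. Over all genes tested 27.2% rose and 28% fell. Cstb fell by 0.57 ± 0.10.

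The labelled knockout and the antibody comparisons share no library. All 16 members higher with the antibody were also among the 24 higher in the labelled knockout, 66.7% of the latter and 100% of the former. Over the 16076 genes tested in both comparisons, 2579 were higher in both, which is 62.2% of those higher in the labelled knockout and 58.4% of those higher with the antibody. Of the 5 lower with the antibody, Ctsk and Hexa were higher in the labelled knockout, Ctsc and Ctss were not called there, and Cln3 was lower in both. The difference of the 2 effects was tested in a fit of the 20 adenine libraries. It was called for 13 of 34 members. The labelled knockout's log2 change minus the antibody's was above 0 for 5 and below 0 for 8, where 16.3% and 21.6% of 17113 genes were called in these directions. Upper-quartile scaling, which moved the median of all genes by 0.16, gave 8 and 1. Leaving out antibody replicate 2, IgG replicate 2 or IgG replicate 4 gave 5 in place of the 8.

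The 5 above 0 were Ctsk (1.68 ± 0.27 on the log2 scale), Ctss (1.19 ± 0.22), Ctsc (0.63 ± 0.17), Hexa (0.60 ± 0.12) and Ctsz (0.60 ± 0.12). In the first 4 of these the antibody's change was the larger in size and lay below 0, while for Ctsz it was that of the labelled knockout. For Ctsz the labelled knockout libraries, at 102 to 126 CPM, lay above the wild-type libraries at 61.6 to 80.7 CPM, while the antibody libraries, at 92.6 to 98.8 CPM, lay inside the IgG range of 81.9 to 113 CPM. The 8 below 0 were Ctsf, Man2b1, Lgmn, Gaa, Ppt1, Lamp2, Tpp1 and Mcoln1, with differences from −0.47 to −0.25. With a transcript-length offset the differences of Ctsf (−0.14, edgeR adjusted p = 0.531) and Mcoln1 (−0.02, adjusted p = 0.91) lost their calls. With protein-coding transcripts alone those of Ctsf, Lgmn, Tpp1 and Lamp2 did (edgeR adjusted p from 0.0767 to 0.0875). The same setting newly called Sgsh (−2.08 ± 0.50, edgeR adjusted p = 0.00319) and Npc1 (−0.89 ± 0.18, edgeR adjusted p = 0.000643) below 0. The share of Sgsh reads on coding transcripts varied widely within groups. It was 7.6% to 34.6% with IgG, 51.3% to 100% with the antibody and 41.7% to 100% in the labelled knockout. Summed over all transcripts the Sgsh difference was −0.23 and not called (edgeR adjusted p = 0.165). For the 4 members with the largest rises in the labelled knockout the difference was not called, with a 95% interval of −0.40 to 0.45 for Arsb, −0.30 to 0.42 for Lipa, −0.24 to 0.36 for Lamp1 and −0.37 to 0.09 for Glb1. The 2 experiments differ in the control, in the agent and in depth, which cannot be told apart here.

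**Figure D3:**
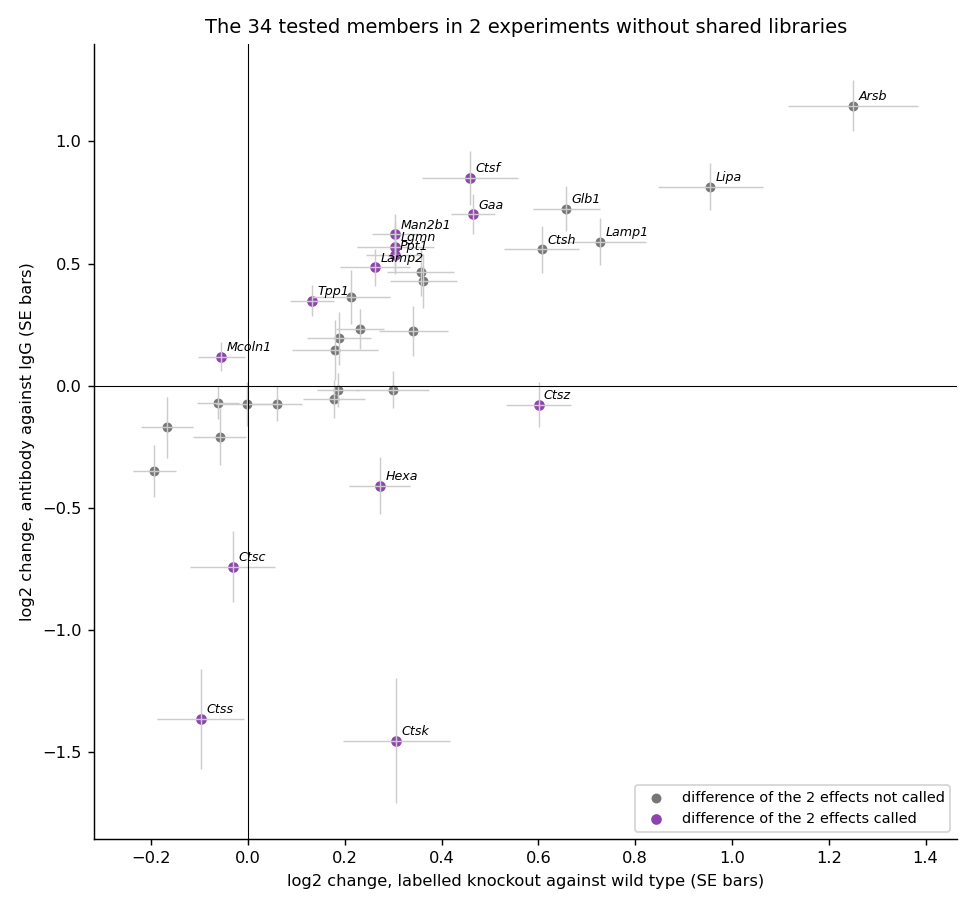
Log2 change in the labelled knockout (horizontal axis) against log2 change with the antibody (vertical axis) for the 34 members tested in both, with SE bars; purple points are members whose 2 effects differed by edgeR's test. Arsb and Lipa lie at the upper right, and Ctsk, Ctss and Ctsc lie lowest on the antibody axis.

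Summed gene counts hid shifts between transcripts for some members. Salmon divides a gene's reads over its annotated transcripts, among them transcripts annotated as retaining an intron, which do not encode the full protein. For Mcoln1 the share of reads on protein-coding transcripts was 55.5% to 72.0% (median 67.7%) on chow, 24.6% to 28.7% (median 26.0%) in wild type on adenine and 31.5% to 36.7% (median 33.3%) in the labelled knockout. The 3 groups did not overlap, and the rest of the reads lay on retained-intron transcripts, at a median of 32.3%, 74.0% and 66.7%. For Neu1 the coding share was 82.6% to 86.9% on chow, 27.3% to 36.7% in wild type on adenine and 45.6% to 57.2% in the labelled knockout. For Tpp1 it was 90.4% to 93.8%, 60.7% to 66.8% and 68.0% to 71.3%, also without overlap.

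Ctsf had a coding share of 50.2% to 59.1% on chow and 15.9% to 24.2% in wild type on adenine. The labelled knockout, at 17.9% to 37.2%, overlapped the wild type. In the antibody experiment 34 members held at least 20 reads in every library, and the groups did not overlap for 14 with a higher and 2 with a lower coding share with the antibody. The 2, with the IgG range given first, were Ctsb (97.8% to 99.8% against 90.3% to 92.3%) and Ctsl (99.86% to 99.88% against 98.8% to 99.5%). Among the 14 were Mcoln1 (37.1% to 40.3% against 45.3% to 56.3%), Neu1 (59.7% to 65.9% against 74.9% to 78.7%), Ctsf (48.4% to 58.5% against 79.8% to 92.3%), Gusb (28.0% to 32.7% against 44.5% to 68.9%) and Npc1 (12.9% to 23.0% against 30.9% to 42.2%). The same count over 34 members was 0 higher and 19 lower in wild type on adenine against chow. It was 12 higher and 0 lower in the labelled knockout against wild type. Coding shares were not counted over all genes, so a shift particular to the members cannot be told from a general one. The members' shares were examined after their values were seen and carry no test of their own. In members such as Ctss, Ctsk, Ctsz, Hexa, Psap and Ctsd the median coding share was 99.9% or more in every group.

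The fit of protein-coding transcripts alone had its own TMM scaling, which also moved members whose reads all lay on coding transcripts. In wild-type adenine against chow Ctss went from 2.34 to 2.49 and Hexa from −0.57 to −0.42. With the antibody Ctss went from −1.36 to −1.43. Changes in this fit thus hold a shift of scale beside any shift between transcripts. In this fit the fall of Neu1 in wild type on adenine was −2.25 ± 0.11 in place of −0.997, and that of Ctsf −2.42 ± 0.22 in place of −1.02. The rise of Arsa was 1.14 ± 0.20 in place of 0.39 and that of Npc1 0.74 ± 0.12 in place of 0.14, though coding transcripts held a median of 12.2% and 20.1% of their reads on chow. Sgsh turned from −0.29 to 0.97 ± 0.47 (edgeR adjusted p = 0.0636), and its coding share ranged from 9.87% to 100% among the chow libraries. In the antibody comparison Gusb changed from −0.07 to 0.83 ± 0.15 (edgeR adjusted p = 0.00129) and Npc1 from −0.07 to 0.96 ± 0.17 (edgeR adjusted p = 0.00109). Whether intron-retaining RNA, unspliced precursor or the division of shared reads gave these shares was not tested.

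**Figure D4:**
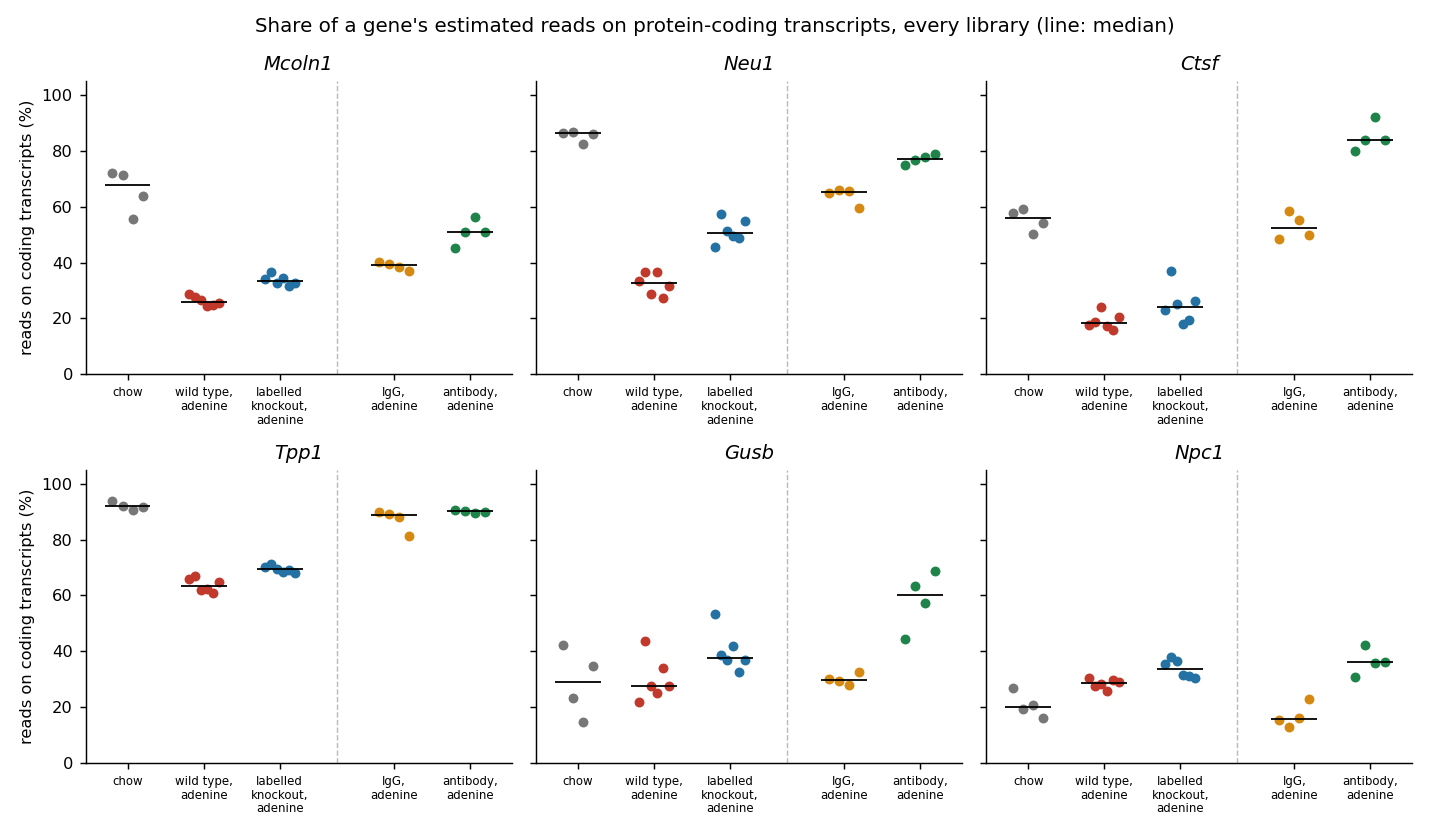
Share of a gene's estimated reads on protein-coding transcripts (vertical axis, percent) in every library for 6 members, with the median of each group as a line. For Mcoln1 and Neu1 the wild-type adenine libraries lie lowest in the knockout experiment, for Ctsf they overlap the labelled knockout, and for all 3 the antibody libraries lie above the IgG libraries.

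Members were also counted with and without CACGTG in the promoter window. Of 13 tested members with the motif 10 fell and 3 rose in wild-type adenine against chow, with a median of −0.29 on the log2 scale, and of 17 without it 12 fell and 3 rose, with a median of −0.87. In the labelled knockout against wild type 9 of 13 with the motif rose and 1 fell (median 0.21), and 13 of 17 without it rose and 1 fell (median 0.30). With the antibody 7 of 14 with the motif rose and 1 fell, and 8 of 17 without it rose and 4 fell. The difference between the 2 sets was not tested. Among the members with the largest changes, Lamp1 and Glb1, whose sequences are printed above, carried CACGTG, and Lipa, Arsb, Ctss and Ctsc did not carry it in these windows.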

How the data were processed

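The submitters' processing notes name Salmon and the build GRCm39, beside FastQC, DESeq2 and DESeq, without the versions. The authors deposited expected counts (estimated reads that need not be whole), TPM and effective lengths per transcript, per the file headers. Libraries were stranded and made from 400 ng of RNA, per the labels' protocols.

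Of 116755 transcript identifiers 115636 matched GENCODE M21 (GRCm38); the rest, with 0.45% to 0.57% of a library's reads, were left out. Counts were summed per gene and rounded. Tests used edgeR 4.0.16 in R 4.3.3 (filterByExpr, TMM, quasi-likelihood F test, two-sided, Benjamini-Hochberg, threshold 0.05) in 3 fits: the 16 libraries of the knockout experiment, the 8 of the antibody experiment, and the 20 adenine libraries for the difference of effects. Errors are SE from the F statistic. The procedure was tested on simulated data in which few genes changed, equally up and down. Such data cannot test the scaling where most genes change. The labels do not say that replicate numbers pair the samples. Deviations of same-numbered libraries correlated at −0.144 to 0.068, which shows no shared signal but cannot exclude a pairing. No 2 libraries held identical values, and log2 CPM within groups correlated at 0.981 to 0.991.

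Members and lists were chosen with earlier results of these data known. Described in full were the 4 called members with the largest rise and the 4 with the largest fall in each knockout-experiment comparison on adenine against its control (3 and 3 with the antibody), with Lamp1, Ctsd and Tfeb; of each other list, at most the 2 called genes with the largest rise and the 2 with the largest fall. Alternatives were RLE and upper-quartile scaling, no filter, DESeq2 1.42.0, a transcript-length offset, protein-coding transcripts, fewer groups in the fit, a replicate block and leaving out each library; unscaled CPM and TPM were added after seeing the data. Promoters are RefSeq sequences of GRCm38.p6. Distal nephron markers (7 of 8 fell and 1 rose on adenine, 5 rose in the labelled knockout, 7 rose with the antibody) and lymphocyte markers (5 of 7 rose on adenine, 0 called in the labelled knockout, 1 of 5 fell with the antibody) were counted as well.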

Additional observations from a re-analysis of the deposited data

Results flagged for a closer look

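In 13 members the labelled knockout effect minus the antibody effect was called by edgeR's test of the difference itself (log2 scale). It was above 0 for Ctsk (1.68, adjusted p = 6.93e-05), Ctss (1.19, adjusted p = 0.00027), Ctsc (0.63, adjusted p = 0.00496), Hexa (0.60, adjusted p = 0.000706) and Ctsz (0.60, adjusted p = 0.000453). It was below 0 by edgeR for Ctsf (−0.47, adjusted p = 0.0281), Man2b1 (−0.39, adjusted p = 0.0031), Lgmn (−0.34, adjusted p = 0.0468), Gaa (−0.32, adjusted p = 0.00576), Ppt1 (−0.31, adjusted p = 0.0171), Lamp2 (−0.30, adjusted p = 0.0357), Tpp1 (−0.29, adjusted p = 0.00336) and Mcoln1 (−0.25, adjusted p = 0.0111). The negative differences of Ctsf, Lgmn and Lamp2 lost the call when 1 of several libraries was left out. That of Mcoln1 was −0.02 with a transcript-length offset (edgeR adjusted p = 0.91) and that of Ctsf −0.14 (adjusted p = 0.531). Tpp1 lost its call with protein-coding transcripts alone (edgeR adjusted p = 0.0875), while Sgsh and Npc1 were then called below 0. The coding share of Sgsh varied widely between libraries of a group, from 7.6% to 34.6% with IgG and from 51.3% to 100% with the antibody.

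A single library stood apart from its group in 8 of 170 groups of values tested, where chance alone flags about 1 in 20. Low values were those of Ctsd in wild-type adenine replicate 5 (393 CPM, the others from 526 to 584 CPM), Hexa in labelled knockout replicate 1 (42.8 CPM, others from 47.7 to 49.9 CPM), Arsb in chow replicate 3 (49.2 CPM, others from 56.3 to 57.6 CPM), Psap in IgG replicate 4 (459 CPM, others from 605 to 627 CPM) and Ppt1 in antibody replicate 1 (78.5 CPM, others from 94.7 to 97.1 CPM). High values were those of Asah1 in labelled knockout replicate 5 (59.9 CPM, others from 54.8 to 56.7 CPM), Lamp2 in antibody replicate 4 (1041 CPM, others from 943 to 957 CPM) and Cln3 in IgG replicate 2 (15.0 CPM, others from 11.9 to 12.4 CPM).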

How the results depend on the processing

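Counts of called members, higher and lower, ranged over leave-one-out fits from 6 to 7 and 23 to 25 (wild-type adenine against chow), 21 to 24 and 1 to 2 (labelled knockout against wild type), 8 to 8 and 19 to 20 (labelled knockout against chow), 14 to 17 and 4 to 6 (antibody) and 5 to 7 and 5 to 8 (difference of effects). Upper-quartile scaling gave 4 lower in the labelled knockout against wild type in place of 2, 11 lower in place of 5 with the antibody, and 8 higher and 1 lower for the difference of effects. Protein-coding transcripts gave 1 lower in the labelled knockout. RLE, DESeq2, no filter, the length offset and fits of 2 groups kept every count within 1.5 times. The cause of these shifts was not tested.

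Signs turned for these log2 changes. With upper-quartile scaling they were Asah1 on adenine (0.028), Enpp1 in the labelled knockout (−0.017), and Ctsd (−0.0084) and Mcoln1 (−0.036) with the antibody. With the length offset they were Npc1 on adenine (−0.012), and Mcoln1 in the labelled knockout (0.0015) and with the antibody (−0.053). With protein-coding transcripts they were Sgsh (0.97) and Mcoln1 (−0.60) on adenine, Mcoln1 in the labelled knockout (0.24), and Asah1 (0.15) and Mcoln1 (−0.35) against chow. Enpp1 with the antibody, at −0.0027, turned with RLE (0.014), DESeq2 (0.027) and the length offset (0.22), and ranged from −0.67 to 0.30 over leave-one-out fits (without antibody replicate 4 and 2). Ctsc in the labelled knockout ranged from −0.093 to 0.023 (without wild-type replicate 5 and 4).

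The members' median was 0.063 without TMM and 0.43 in TPM on adenine, 0.18 and 0.14 in the labelled knockout, 0.15 and 0.51 for it against chow, and −0.043 and 0.018 with the antibody, beside −0.59, 0.27, −0.41 and 0.19 with TMM. Relative to all genes, TPM gave −0.57 on adenine and −0.32 for the labelled knockout against chow, in place of −0.66 and −0.44.

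The replicate block is a check only, since the labels do not say that equal numbers mean paired samples. With it 24 members were higher and 2 lower in the labelled knockout, 6 and 25 on adenine, 8 and 20 against chow, 15 and 5 with the antibody and 5 and 7 for the difference; Gusb on adenine (0.15), Ctsa with the antibody (0.23) and the difference for Ctsf (−0.47) lost their calls. Of 6, 4, 4 and 4 pairs, 1, 1, 0 and 0 correlated best with their own number.

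Gla, listed at 0 in 18 of 24 libraries, did not pass the filter on low counts in the knockout experiment and has no comparison there.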
